A study of Mus musculus with 6 samples.

Results

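The n11-GC-5 cells were 1669 neurons that the deposited annotation of the adult mouse olfactory bulb names as a cluster of granule cells, out of 21746 neurons in 18 types and 51426 annotated cells. A cell belonged to the cluster when the neuronal annotation gave it that name, and its library was taken from the annotation's library column. The study asked how olfactory experience alters the neurons that are added to the bulb in adult life, and measured RNA in single cells as unique molecular identifiers (UMIs), each of which marks 1 captured RNA molecule. The 6 libraries came from C57BL/6NJ wild-type mice, with 2 libraries in each of 3 groups. The control group had no manipulation by the labels, the naris-occluded group had olfactory deprivation by naris occlusion, and the trained group had olfactory training. By the study's methods the trained mice were also deprived of water, which served as their reward. Training and water deprivation cannot be told apart here. By the study each library pooled 3 mice of 14 weeks of age, after 6 weeks of occlusion or training in those groups, with males in replicate 1 and females in replicate 2. None of the groups carried a transgene or received a drug for these libraries. The study's text names the open side of occluded mice as the control for occlusion. Elsewhere it describes the sequenced controls as naive, which goes with the labels.

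Granule cells are the most numerous inhibitory neurons of the olfactory bulb. They have no axon and release GABA from their dendrites onto mitral and tufted cells, the neurons that carry odor information out of the bulb. New granule and periglomerular cells arise through life from the subventricular zone and migrate into the bulb as neuroblasts that express doublecortin (Dcx), a microtubule-binding protein of immature neurons. Tyrosine hydroxylase (Th), the rate-limiting enzyme of dopamine synthesis, is best known in the bulb from dopaminergic periglomerular cells, where its level depends on odor input.

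The n11-GC-5 cells had a median of 2110 UMIs and 1266 genes per cell, the second highest UMI median of the 18 types after n12-GC-6 (3533 UMIs). Their summed counts came to between 408077 and 760969 UMIs per library, from 184 to 347 cells. Between 6.07% and 8.40% of UMIs in the median cell were mitochondrial, depending on the library. No barcode occurred in more than 1 of the n11-GC-5 libraries, and 96 cells (5.75%) shared a barcode with a cell of any type in another library, the same share as in all annotated cells (5.75%). Xist was at 0 in the n11-GC-5 cells of the 3 replicate 1 libraries and at 2281, 2530 and 2364 CPM in the replicate 2 libraries, which matched the sexes the study states. Summed markers of mitral and tufted cells reached 1.0% of their level in n17-M/TC-3, those of microglia 0.5% of MicroG1, and those of astrocytes 4.5% of Astro1. The 10 genes listed as sensory neuron markers summed to a mean of 812 CPM (2.02% of n01-OSNs), with 6 of them in every library and Cyp2g1 at 0 in all. The 8 ensheathing cell markers summed to 1137 CPM (3.89% of OEC1), with 5 of them in every library and Omd at 0 in all.

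The levels that follow are UMIs per 1000000 UMIs (CPM), summed over the n11-GC-5 cells of a library, as the mean ± SD of 6 libraries. The clusters were made from these same counts, so levels across types are a description without a test. Dcx stood at 322 ± 62.5 CPM, namely 286 and 309 in the controls, 355 and 409 after occlusion and 227 and 345 after training. Higher means were found in 4 of the 18 types, n04-Immature at 907 CPM, n06-Transition at 445, n05-PGC-2 at 374 and n07-GC-2 at 324, of which the last 2 lay within 1 SD of n11-GC-5. Th stood at 150 ± 21.7 CPM, namely 146 and 149 in the controls, 160 and 160 after occlusion and 175 and 111 after training. Only n05-PGC-2 at 1277 CPM and n18-EPL-IN at 243 CPM had higher means, and n12-GC-6 followed at 65.3 CPM. Neither gene on its own therefore set n11-GC-5 apart. The libraries of n18-EPL-IN spread over those of n11-GC-5, with 0 CPM in the lowest, so the order of these types was not firm.

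**Figure D1:**
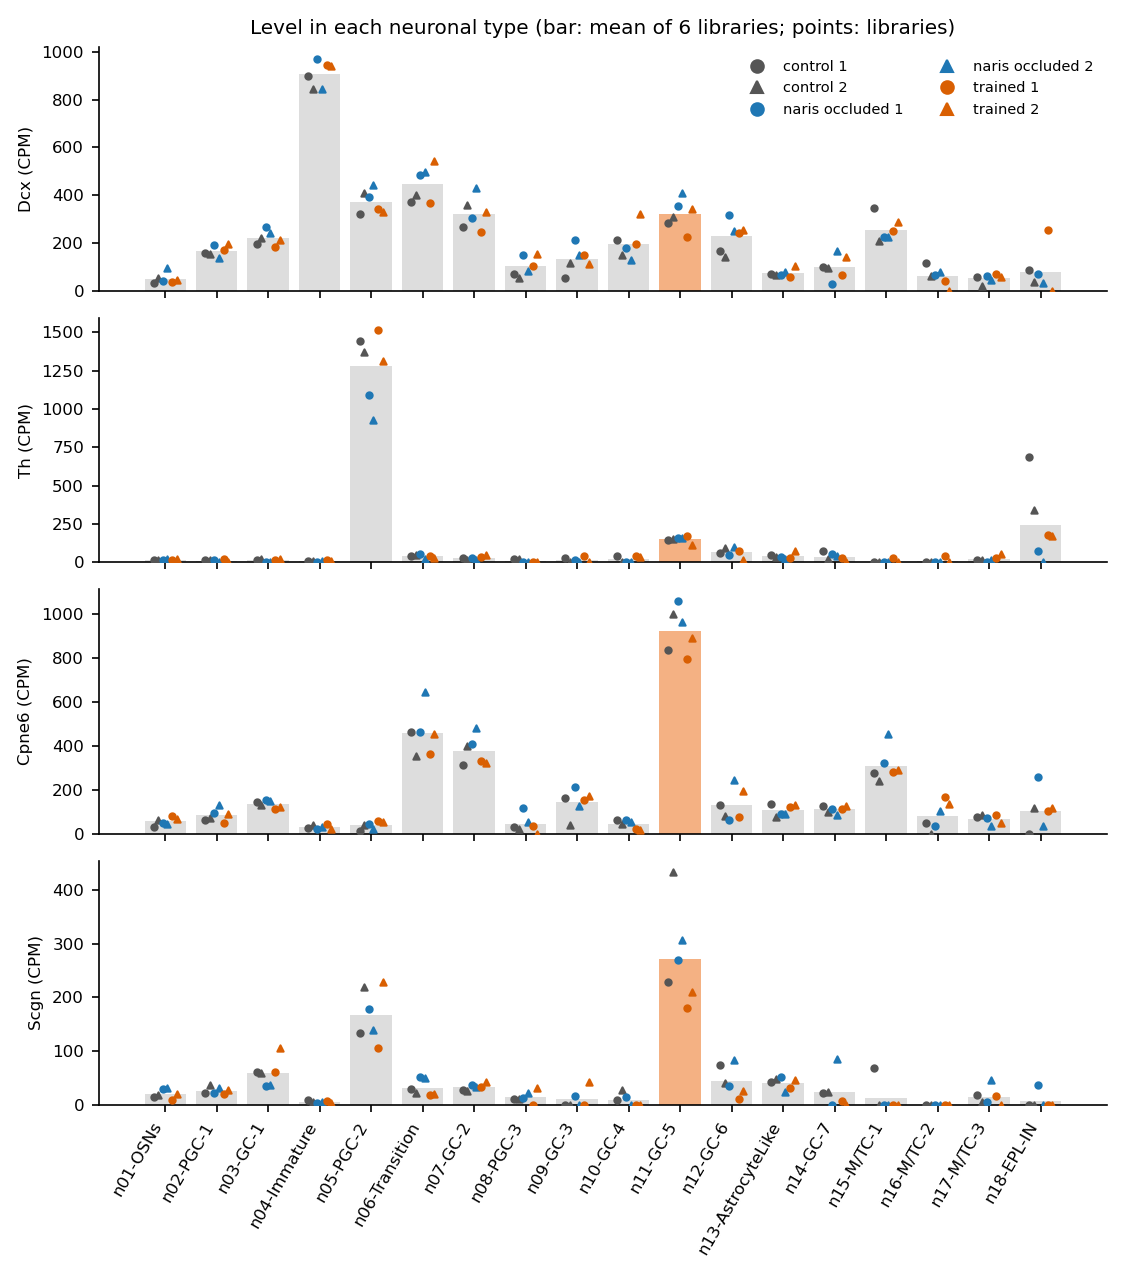
Level of Dcx, Th, Cpne6 and Scgn (CPM, linear axes from 0) in the 18 neuronal types, with bars for the mean of 6 libraries and a point for each library, n11-GC-5 in orange. Dcx in n11-GC-5 (322 CPM) sits below n04-Immature (907 CPM) and Th (150 CPM) below n05-PGC-2 (1277 CPM), whereas Cpne6 (922 CPM) and Scgn (272 CPM) have their highest means in n11-GC-5.

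In single cells, 44.5% of n11-GC-5 cells had a Dcx UMI and 20.5% a Th UMI, and 199 cells (11.9%) had both. Myelinating oligodendrocytes, which should lack both RNAs, gave 6.88% and 1.86%, with 0.23% of cells holding both. When every cell was thinned to 500 UMIs, 13.9% of n11-GC-5 cells kept a Dcx UMI (95% Wilson interval 12.3% to 15.6%) and 5.81% a Th UMI (4.79% to 7.04%), against 1.05% and 0.23% of oligodendrocytes. The share with both genes was 31.6% in n05-PGC-2, 8.44% in n12-GC-6, 1.02% in n04-Immature and 0.31% in n03-GC-1 before thinning. The intervals cover counting error only, and 783 n11-GC-5 cells (46.9%) had no UMI of either gene.

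Several genes had their highest mean of the 18 types in n11-GC-5. Cpne6, a calcium-dependent phospholipid-binding protein of dendritic spines, stood at 922 ± 101 CPM, namely 834 and 1000 in the controls, 1057 and 962 after occlusion and 793 and 887 after training. The next type, n06-Transition, had 455 CPM, and the n11-GC-5 value was higher in every library. Camk2n1, an inhibitor of the calcium/calmodulin-dependent kinase CaMKII, stood at 1327 ± 74.9 CPM against 686 in n13-AstrocyteLike, and Isoc1 at 101 ± 17.7 against 40.6 in n04-Immature. Secretagogin (Scgn), a calcium-binding protein of bulb interneurons, stood at 272 ± 91.1 CPM against 168 in n05-PGC-2. Its libraries spread from 181 to 434 CPM, and those of the 2 types overlapped.

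Of 3528 genes with a mean of at least 50 CPM in n11-GC-5, 155 had their highest mean of the 18 types there and 10 were above each other type in every library. That count was 5 in cells of at least 1000 UMIs and 17 without trained replicate 2. The 10 were Cpne6, Camk2n1, Isoc1, the small GTPase Arl4a, the sorting nexin Snx7, the guanine nucleotide exchange factor Rap1gds1, the G protein regulator Rgs12, the kinase Stk32c, Ccsap and Pnmal2. Snx7 stood at 153 ± 18.9 CPM against 108 in n12-GC-6, Arl4a at 140 ± 19.6 against 74.3 in n12-GC-6 and Rgs12 at 156 ± 25 against 108 in n07-GC-2. The remaining genes with the largest ratios to the highest other type were the transcription factor Klf16, the adhesion protein Amigo2, the growth factor receptor adaptor Grb2 and the mitochondrial protein Mtfp1. Grb2 was at 428 ± 43.8 CPM and at 313 CPM in n12-GC-6.

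Against the median of the other 17 types, the largest differences were in Cpa6, Cpne6, Scgn, Col6a1, 9530059O14Rik, Pcp4, Penk, Kank3, Ano3 and Th. Differences are log2 ratios with 10 CPM added to both sides. Pcp4, a small calmodulin regulator, stood at 6900 ± 573 CPM, a log2 ratio of 2.83, and Penk, the precursor of the enkephalins, at 319 ± 50.4 CPM, a log2 ratio of 2.73. Pcp4 was almost as high in n10-GC-4 (5985 CPM) and Penk higher in n07-GC-2 (447 CPM). The lowest genes against the median type included Cck, Chga, Tshz2, Serpine2, Ptn, Stmn2, Cd63, Rcan2 and Msi2. Cck, the cholecystokinin precursor, stood at 22 ± 6.63 CPM and Serpine2, a secreted protease inhibitor, at 49.0 ± 6.53 CPM against 1447 in n03-GC-1. Among all genes at 50 CPM or more in n11-GC-5, 83.0% lay above the median type, with a median log2 ratio of 0.29. This filter was set on n11-GC-5 itself, which favors genes that are high there. Counts in gene groups are therefore to be read against the 83.0%.

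Of 22 listed calcium-binding genes, the 16 with at least 50 CPM in n11-GC-5 all lay above the median type, with a median log2 ratio of 1.58. Beside Pcp4 and Scgn these included calretinin (Calb2) at 1137 ± 274 CPM, neurogranin (Nrgn) at 133 ± 24.2, Calm3 at 768 ± 24.1 and Necab2 at 84.8 ± 20.6. Calbindin (Calb1, 2.28 CPM) and parvalbumin (Pvalb, 0.734 CPM), which mark other bulb interneurons, were near 0. Of 30 dendritic and postsynaptic genes, 25 were at 50 CPM or more and 23 of these were above the median type (median log2 ratio 0.96). The 6 with their highest mean in n11-GC-5 were Cpne6, Camk2n1, Camk2b (703 ± 47.0 CPM), Camkv (284 ± 13.6 CPM), the scaffold Dlg4 (191 ± 21.0 CPM) and Anks1b (273 ± 13.8 CPM). Of 32 Ras and MAP kinase genes, 18 were at that level and 17 of these were above the median type. Map2k1 was at 647 ± 72.4 CPM against 111 in the median type. The study's own list for the cluster had 59 of 59 members above the median type and 23 at the top of the 18. That list was chosen by the study on these samples and is not independent evidence.

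The transmitter genes placed n11-GC-5 among GABAergic cells. Gad1, the main enzyme of GABA synthesis, stood at 1588 ± 75.6 CPM, with its libraries between 1488 and 1681, second to n12-GC-6. Gad2 stood at 457 ± 47.6 CPM and Slc32a1, the vesicular GABA transporter, at 264 ± 41.2. Of the genes that make and store dopamine, Th was the one above the filter that is specific to that path. Ddc, which makes dopamine from the product of Th, stood at 0.986 ± 1.28 CPM against 53.5 in n05-PGC-2, and was at 0 in 3 of 6 libraries. The vesicular monoamine transporter Slc18a2 was at 3.38 ± 3.18 CPM against 54.2 in n05-PGC-2, the dopamine transporter Slc6a3 at 0.795 ± 1.25 against 68.6, and Gch1, which makes a cofactor of Th, at 1.27 ± 1.10 against 23.1. Nr4a2, a transcription factor of dopaminergic neurons, was second highest in n11-GC-5 at 38.5 ± 6.93 CPM, after n05-PGC-2 at 109.9.

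Of 10 listed granule cell markers 9 reached 50 CPM in n11-GC-5, and 8 of these were above the median type (median log2 ratio 1.17). Meis2, a transcription factor of bulb interneurons, stood at 1628 ± 84.5 CPM (rank 7 of the 18 types), the vesicle protein Synpr at 1757 ± 270 (rank 3) and Stxbp6 at 445 ± 32.1 (rank 2). Stxbp6 is also on the study's own list for the cluster. Tpbg, which marks superficial granule cells, was at 18.4 ± 6.12 CPM against 410 in n12-GC-6. Of 8 listed markers of periglomerular cells 6 reached 50 CPM, and all 6 were above the median type (median log2 ratio 1.53). Calb2, which is on both lists, Sp8, Cpne4 and Th were above 100 CPM, while Trh, a peptide precursor, stood at 89.9 ± 37.0 CPM against 3881 in n05-PGC-2. These lists alone therefore did not tell granule from periglomerular cells. Of 30 bulb transcription factors, the 22 at 50 CPM or more were all above the median type (median log2 ratio 0.74), and none had its highest mean in n11-GC-5. Of 20 immature neuron genes 12 were at that level, and 9 of these were above the median type. Tubb3 stood at 495 ± 106 CPM and Stmn1 at 598 ± 108, against 4014 for Stmn1 in n04-Immature. Stmn2, another stathmin of growing neurons, stood at 47.8 ± 9.11 CPM, below the median type. All 13 mitochondrial genes were below the median type, with a median log2 ratio of -0.48.

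n12-GC-6 was the type whose profile was most like that of n11-GC-5, with a Pearson r of 0.96 across 7021 genes, followed by n07-GC-2 and n10-GC-4 at 0.89. Genes are not independent replicates, and both types share libraries and high depth. Calb2 had the largest ratio in favor of n11-GC-5 among genes at 50 CPM or more there, with 1137 CPM against 95.5 in n12-GC-6, a log2 ratio of 3.66. Cpne6 (922 against 131 CPM), Necab2 (84.8 against 5.45), the serotonin receptor Htr1f (117 against 15.0), Nrgn and Scgn (272 against 44.9) were also higher in n11-GC-5. Tpbg (log2 ratio -3.91), the neurotrophin Bdnf (6.24 against 73.7 CPM), Esrrg and the muscarinic receptor Chrm2 (41.5 against 191) were lower. These genes were picked by the size of the ratio after n12-GC-6 had proved the most similar type.

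Against n03-GC-1, the calretinin-rich granule cell cluster, n11-GC-5 had higher Epha5 (1017 against 59.9 CPM), Pcp4, Cpa6, Arpp21 and Gabra5, and lower Calb2 (1137 against 13129 CPM), Kcnip2 (16.8 against 893), Serpine2, Nfix and G0s2. Epha5 is an ephrin receptor, Gabra5 a GABA receptor subunit and Kcnip2 a potassium channel regulator. Against the dopaminergic n05-PGC-2, Epha5, Cpne6, Pcp4 and Sema3c were higher and Trh, Gal, Syndig1l, Prss12 and Pde1c lower. Gal, the galanin precursor, was at 0.459 CPM in n11-GC-5 and 422 CPM in n05-PGC-2.

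**Figure D2:**
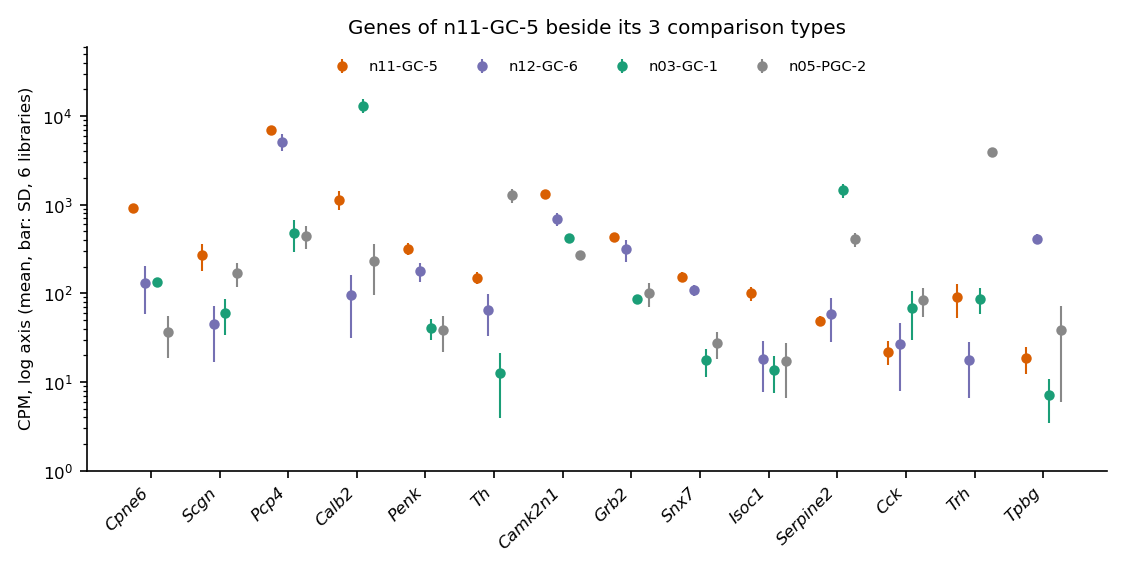
Level of 14 genes (CPM, log axis) in n11-GC-5, n12-GC-6, n03-GC-1 and n05-PGC-2, with points for the mean and bars for the SD of 6 libraries. Cpne6 and Isoc1 are highest in n11-GC-5, Pcp4 and Grb2 are shared with n12-GC-6, and Calb2 separates n11-GC-5 (1137 CPM) from n12-GC-6 (95.5 CPM) and n03-GC-1 (13129 CPM).

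The cells were not all alike in the annotation of the whole bulb, from which the study took the neurons that it then clustered again. There 1543 of the 1669 cells (92.5%) fell in cluster N10, 64 in N8 and 30 in N9. Summed over its cells, N10 had 1161 CPM of Calb2 (exact 95% Poisson interval 1125 to 1197), whereas the N8 cells had 310 (194 to 469) and the N9 cells 342 (164 to 629). Pcp4 was at 7071, 4577 and 2669 CPM in the same order. Scgn was at 272 CPM (255 to 290) in N10 and 70.4 (22.9 to 164) in N8. Cpne6 was at 929, 577 and 958 CPM, and the intervals of N10 and N9 overlapped. The N8 and N9 cells rest on 71008 and 29227 UMIs summed over the 6 libraries, against 3470153 for N10. They thus also had fewer UMIs per cell. The intervals cover counting error only, not the spread between cells or libraries, and the whole-bulb clusters were made from the same counts, so these values are a description.

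Among 16302 adult-born neurons of 12 types, n11-GC-5 made up 10.4% (95% Wilson interval 9.36% to 11.5%) and 8.26% (7.19% to 9.47%) in the controls, 10.6% (9.44% to 11.9%) and 11.9% (10.7% to 13.1%) after occlusion and 9.89% (8.92% to 10.95%) and 10.0% (8.86% to 11.3%) after training. Both occluded shares were above both control shares, and the trained shares fell between the control shares. edgeR's quasi-likelihood test on cell numbers gave a log2 difference of 0.27 ± 0.31 (SE) for occluded against control (Benjamini-Hochberg adjusted p = 0.573 over 12 types, 8.33% of which were called), 0.09 ± 0.31 for trained against control (adjusted p = 0.837, 0% called) and -0.18 ± 0.31 for trained against occluded (adjusted p = 0.869, 25% called). The two-sided exact permutation p was 0.333, 1 and 0.333, and 0.333 is the smallest that 2 libraries against 2 can give. No difference in the share was detectable with these libraries, and a loss of cells during dissociation and a change in the tissue cannot be told apart.

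**Figure D3:**
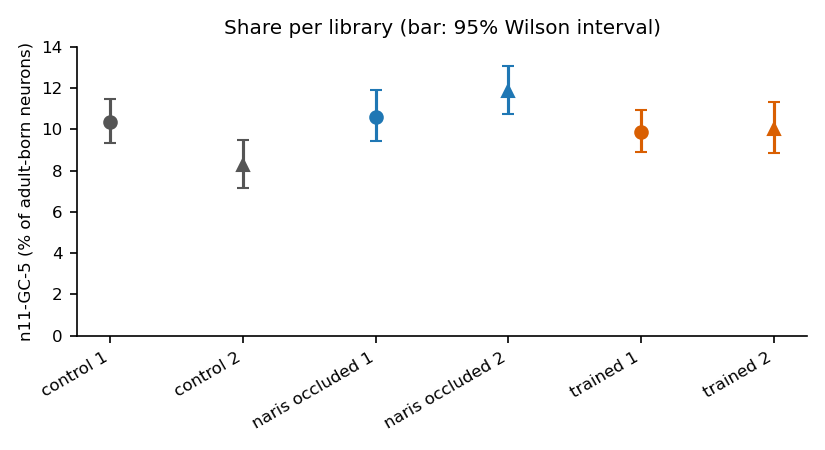
Share of n11-GC-5 among adult-born neurons (%, axis from 0) in each library, with 95% Wilson intervals that cover counting error only. The control libraries, at 10.4% and 8.26%, lie further apart than the occluded (10.6% and 11.9%) or the trained libraries (9.89% and 10.0%).

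Occlusion changed 5 of 8212 tested genes in n11-GC-5 (0.0609% of them), of which 4 were hemoglobin genes that rose (0.0487%) and 1, S100a5, fell (0.0122%). Values for conditions are CPM scaled by TMM over the tested genes. S100a5, a calcium-binding protein best known from olfactory sensory neurons, stood at 622 and 483 in the controls, 213 and 133 in the occluded and 671 and 332 in the trained libraries. The control and occluded libraries did not overlap, and the log2 fold change was -1.70 ± 0.23 (SE, n = 2 against 2, adjusted p = 0.000212). S100a5 moved the same way outside n11-GC-5. Red blood cells, which should lack it, had 330 and 388 CPM in the controls and 93.8 and 43.3 in the occluded libraries, myelinating oligodendrocytes had 262 and 293 against 125 and 60.4, and the sensory neurons of n01-OSNs had 28031 and 25567 against 15027 and 10026. The listed sensory neuron markers other than S100a5 summed to 464 and 419 CPM in the controls, 388 and 334 in the occluded and 585 and 303 in the trained libraries of n11-GC-5, and their part in the result was not tested. DESeq2 did not call S100a5 (log2 fold change -1.68, adjusted p = 1.00).

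The hemoglobin calls rested on a handful of cells. Hbb-bs stood at 105 and 45.8 in the controls, 1596 and 1371 in the occluded and 30.7 and 43.0 in the trained libraries. In occluded replicate 1, 1667 of 1782 hemoglobin UMIs came from 1 cell, where they were 54.2% of its UMIs, and in occluded replicate 2, 1442 of 1629 came from 1 cell. Without the 5 cells that held 5 or more hemoglobin UMIs, a choice made after seeing the data, Hbb-bs had a log2 fold change of 0.45 (adjusted p = 0.981) and S100a5 of -1.70 (adjusted p = 0.000773), the only call left. None of Dcx (0.35 ± 0.16), Th (0.10 ± 0.19), Cpne6 (0.12 ± 0.13) or Calb2 (0.39 ± 0.13) passed the test in this comparison, with adjusted p between 0.983 and 0.984. At an unadjusted p under 0.05 there were 384 genes.

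In n11-GC-5, 10 genes were higher and none lower in the trained than in the control libraries (0.122% of 8212 tested, 568 at an unadjusted p under 0.05). The part of water deprivation in these differences was not tested. Homer1, a postsynaptic scaffold with a short form induced by activity, stood at 80.9 and 99.1 in the controls, 73.1 and 86.9 in the occluded and 204 and 162 in the trained libraries, a log2 fold change of 1.06 ± 0.20 (adjusted p = 0.0246). Grasp, a scaffold for metabotropic glutamate receptors, went from 90.9 and 81.4 to 196 and 166, a log2 fold change of 1.06 ± 0.19 (adjusted p = 0.0246). Fosl2, a transcription factor of the AP-1 family, went from 35.5 and 30.5 to 115 and 65.6 (1.45 ± 0.30, adjusted p = 0.0466). With 1 library left out its log2 fold change ran from 0.95 to 1.76. In all 10 genes both trained libraries were above both controls, which the calls themselves nearly require.

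Zmym1, a zinc finger gene, had the lowest p, with 39.7 and 17.8 in the controls and 120 and 104 in the trained libraries (log2 fold change 1.83 ± 0.28, adjusted p = 0.00495). The circadian repressors Bhlhe41 (71.0 and 48.3 against 179 and 125) and Per3 (39.7 and 35.6 against 84.0 and 102) rose by 1.31 ± 0.24 and 1.27 ± 0.26. The heat shock cognate chaperone Hspa8 stood at 1001 and 1093 in the controls and at 1988 and 1481 in the trained libraries, a log2 fold change of 0.73 ± 0.14. Spred2, an inhibitor of Ras signalling, rose by 1.54 ± 0.31, the cysteine dioxygenase Cdo1 by 1.36 ± 0.28 and the DNA topoisomerase Top1 by 0.70 ± 0.14. Per3 and Cdo1 were higher in trained replicate 2 than in replicate 1, whereas the remaining 8 were higher in replicate 1.

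**Figure D4:**
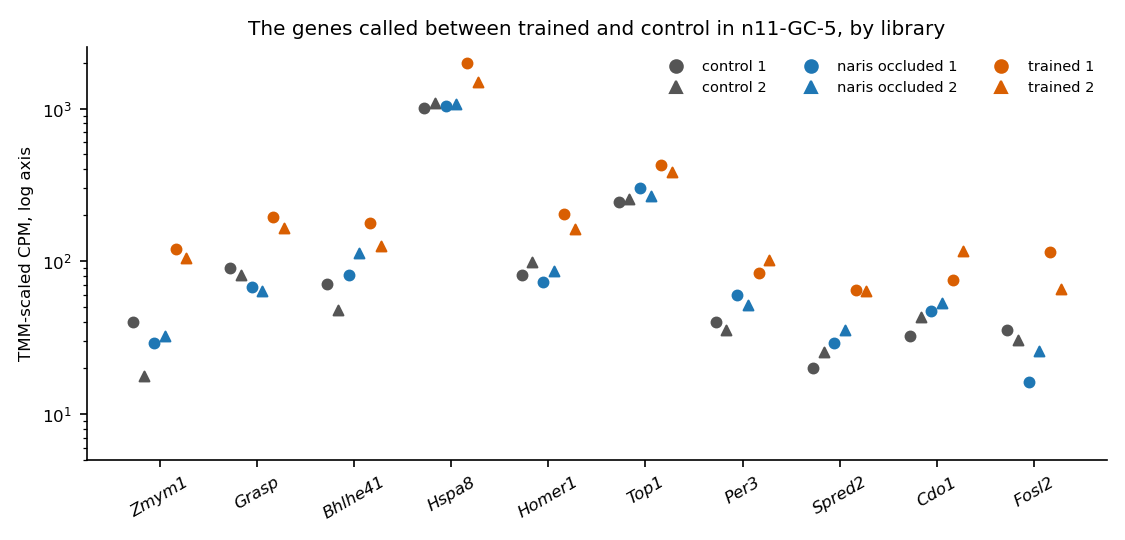
TMM-scaled CPM (log axis) of the 10 genes called between trained and control in n11-GC-5, ordered by p, with a point for each library. For each gene both trained libraries lie above both controls, which the calls themselves nearly require, as for Homer1 (204 and 162 against 80.9 and 99.1).

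The calls depended on the libraries. Without trained replicate 1 none of the 10 passed, without control replicate 1 or control replicate 2 the count was 2 in either case, and without occluded replicate 1 or 2 it was 17 or 18. With the replicate number as a block 22 genes passed (17 higher and 5 lower, all 10 among them), and Scgn, Cdkn1a and Trh were among those added, while DESeq2 called 1. The same genes had higher trained than control means in 12 to 17 of the 18 types, n11-GC-5 included, and the types share their libraries. Homer1 stood at 40.5 CPM in control and 59.6 in trained n03-GC-1, and at 105 and 218 in n12-GC-6.

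The 250 bases upstream of the start site, from RefSeq on GRCm38.p6, were found for 7 of the 10 genes, and not for Zmym1, Hspa8 and Cdo1. They are shown for Homer1 and Bhlhe41, the called genes that stand for synaptic and for circadian function, with capitals for TGACG (the core of the cAMP response element, on either strand) and for CACGTG (the E-box bound by circadian regulators).

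Homer1, chr13:93303507-93303756, plus strand: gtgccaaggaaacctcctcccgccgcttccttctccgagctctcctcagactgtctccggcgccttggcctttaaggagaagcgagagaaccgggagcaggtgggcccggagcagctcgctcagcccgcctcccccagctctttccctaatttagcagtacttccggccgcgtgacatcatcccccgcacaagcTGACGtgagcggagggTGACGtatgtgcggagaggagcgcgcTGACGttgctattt
Bhlhe41, chr6:145865421-145865670, minus strand: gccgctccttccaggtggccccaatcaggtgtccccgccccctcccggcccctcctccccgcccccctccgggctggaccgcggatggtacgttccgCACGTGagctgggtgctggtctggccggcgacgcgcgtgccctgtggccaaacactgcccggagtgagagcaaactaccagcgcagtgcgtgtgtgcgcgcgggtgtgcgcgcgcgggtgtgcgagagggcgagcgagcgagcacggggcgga

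TGACG occurred in the windows of 2 of 7 genes (Homer1 and Spred2), against 28.6% of the windows of all tested genes, and CACGTG in 2 of 7 (Bhlhe41 and Top1), against 8.53%. The full cAMP response element TGACGTCA (3.03% of all windows), which contains that core, the AP-1 site TGANTCA (3.88%) and the heat shock element (0.414%) were in none of the 7. Hspa8, the called heat shock gene, had no window and was not searched. Both strands were searched. Homer1 had 2 start sites in the table, and its other window held none of these motifs. The windows of Grasp, also a synaptic gene, and Per3, also a circadian gene, held none of them either. A match is a description of the letters and says nothing about binding.

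Genes that are transcribed within minutes to hours of neuronal activity were examined as a group, since Homer1 and Fosl2 belong to it. Of 24 members tested in trained against control, 23 had a positive log2 fold change, with a median of 0.56, and 2 passed the test, whereas over all 8212 genes 50.3% were positive, the median was 0.00 and 0.122% passed. The 2 that passed were Homer1 and Fosl2, the genes that led to the choice of the group. Their count is therefore not independent evidence, and both also enter the 23 and the median. Fos (1.07 ± 0.38), Nptx2 (1.35 ± 0.43), Nr4a1 (0.85 ± 0.29) and Junb (0.58 ± 0.23) did not pass. In occluded against control, which uses the same controls, 6 of 24 were positive with a median of -0.35 and none passed, against 51.4% positive and 0.0609% passed over all genes. Egr1 had -0.77 ± 0.22 and Jun 0.65 ± 0.23 in that comparison. The list was not tested as a set.

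The size of these differences also moved with single libraries. Without trained replicate 1 the median in trained against control was 0.22 with 22 of 25 positive, and without trained replicate 2 it was 0.67 with 23 of 25 positive. Without occluded replicate 1 the median in occluded against control was -0.07, and without occluded replicate 2 it was -0.66. In fits of their own, n03-GC-1 had 7 of 15 positive for trained against control (median -0.09), n05-PGC-2 7 of 9 (0.49) and n12-GC-6 8 of 10 (0.74), with fewer members above the filter. In n11-GC-5 11 of 13 heat shock and dissociation genes were positive too (median 0.25) and Hspa8 among them passed. Without trained replicate 1 the median was 0.02 with 8 of 13 positive and none called, and the part of tissue handling was not tested.

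**Figure D5:**
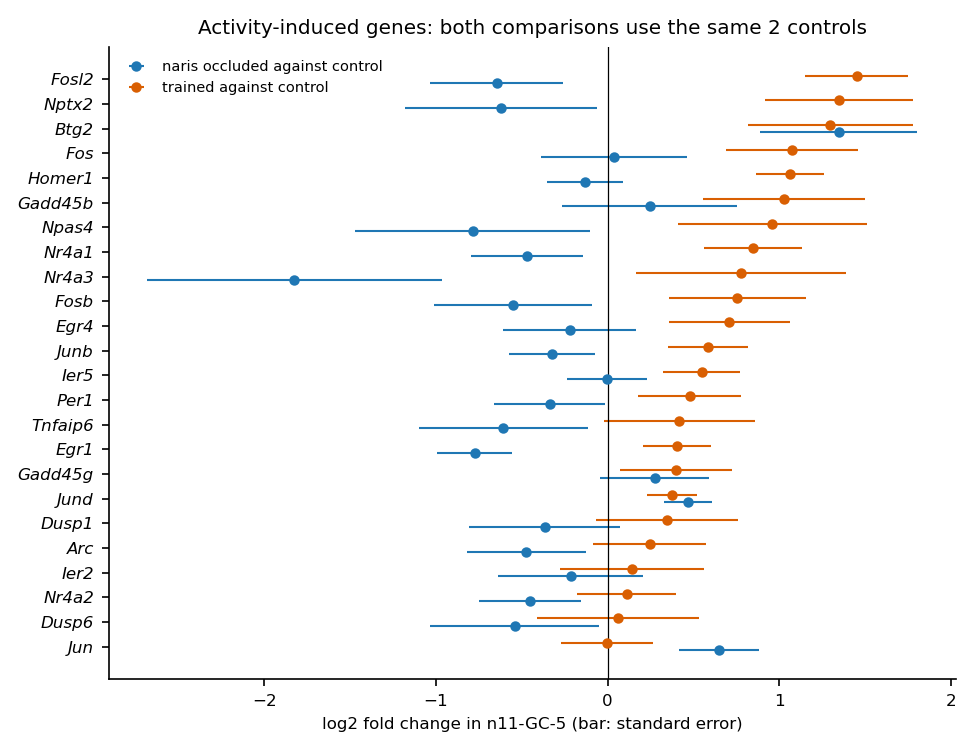
Log2 fold change (points) and standard error (bars) in n11-GC-5 for the 24 tested activity-induced genes, trained against control in orange and occluded against control in blue, which share their 2 control libraries. The orange points lie above 0 for 23 genes, and the blue points for 6.

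Trained against occluded libraries gave the most calls, with 34 genes (0.414% of 8212), of which 22 were higher (0.268%) and 12 lower (0.146%) in trained. Of these 4 were hemoglobin genes. When the 5 hemoglobin-rich cells were left out 30 of the 34 remained called, Hbb-bs (-1.62, adjusted p = 0.0114) among them, while Nptx2 kept its size (1.96 against 1.97) at an adjusted p of 0.0503. Activity-induced genes made up 5 of the 22 higher genes, Homer1, Fosl2, Egr1, Nr4a1 and the secreted pentraxin Nptx2, and 24 of the 8212 tested genes. Homer1 and Fosl2 had led to the choice of this group with the same trained libraries, so the count is not independent evidence. Without trained replicate 1 none of the activity-induced genes was called, and their median fell from 0.86 to 0.60. Egr1, an early transcription factor, stood at 63.4 and 71.9 in the occluded, 101 and 140 in the control and 165 and 141 in the trained libraries, a log2 fold change of 1.18 ± 0.21 (adjusted p = 0.0042). Nr4a1 had 35.8 and 51.6 in the occluded and 145 and 69.7 in the trained libraries (1.32 ± 0.29, adjusted p = 0.0397), a gap carried mainly by trained replicate 1. The peptide precursor Vgf rose by 1.12 ± 0.24, the protocadherin Pcdh17 by 1.09 ± 0.18, the synaptotagmin Syt10 by 0.99 ± 0.20 and the histone deacetylase Hdac5 by 1.02 ± 0.22.

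Among the lower genes, Calb2 stood at 1599 and 1352 in the occluded, 1114 and 1136 in the control and 890 and 912 in the trained libraries, so that the groups did not overlap, and trained lay below occluded by a log2 fold change of -0.71 ± 0.13 (adjusted p = 0.00452). Both trained values of Calb2 were below both occluded values in 12 of the 18 types, n11-GC-5 itself among them. The types share these libraries and are not separate observations, and the same count was not made for other genes. Oligodendrocytes, which should lack it, had 84.8 and 105 CPM in the occluded and 73.1 and 57.6 in the trained libraries, and the part of RNA from other cells was not tested. Trh went from 95.9 and 136 to 54.9 and 41.0 (-1.26 ± 0.25, adjusted p = 0.0148). Gap43, a growth cone protein, went from 102 and 124 to 53.3 and 43.0 (-1.22 ± 0.23, adjusted p = 0.0103), and the stathmin Stmn4 from 333 and 353 to 212 and 223 (-0.66 ± 0.14, adjusted p = 0.0224). Mtfp1 was lower as well, the one called member of the study's list of 59. Without trained replicate 1 the count was 7, and with the replicate block it was 66 (38 higher and 28 lower), while DESeq2 called 11.

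A test of the difference between types was made against n03-GC-1, the calretinin-rich granule cells, and n05-PGC-2, the dopaminergic cells. The most similar type, n12-GC-6, was not tested in this way. For training, no gene of 8802 was called as differing in its response between n11-GC-5 and n03-GC-1 (0% by edgeR's quasi-likelihood test, 432 at an unadjusted p under 0.05). On simulated counts this test recovered 7% of genes changed by a log2 of 1, and 4.5% against n05-PGC-2, so most such differences would be missed. Between n11-GC-5 and n05-PGC-2 only Mt2, a metallothionein, was called by the same test (difference of log2 fold changes 1.42 ± 0.28, adjusted p = 0.0132, 0.0149% of 6714). Mt2 was not called when control replicate 1 or 2 or trained replicate 1 or 2 was left out, and with any 1 library left out the count ran from 0 to 4. For occlusion, 8 genes differed from n03-GC-1 (0.0909% of 8802), 3 of them hemoglobin genes. Stmn4 had a log2 fold change of 0.50 in n11-GC-5 and -0.48 in n03-GC-1, a difference of 0.96 ± 0.18 (adjusted p = 0.000875). The actin regulator Phactr1 differed by -1.25 ± 0.28 (-0.85 against 0.40, adjusted p = 0.0219). None of these fold changes passed on its own in either type. The 3 genes that differed from n05-PGC-2 (0.0447% of 6714) were hemoglobin genes, and none was called there without the hemoglobin-rich cells.

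Replicate 1 against replicate 2, which stands for males against females and for any difference between the pools, gave 26 genes (0.317% of 8212), of which 8 were higher (0.0974%) and 18 lower (0.219%) in replicate 1. Xist and Tsix were higher in replicate 2, and Ddx3y, Eif2s3y, Kdm5d and Uty, which lie on the Y chromosome, in replicate 1. Beyond these, Ptgds was higher in replicate 1 (log2 fold change 1.11 ± 0.12, adjusted p = 6.23e-11), as was S100a5 (0.68 ± 0.12). The neuropeptide precursor Tac1 was lower in replicate 1 (-2.52 ± 0.37, adjusted p = 1.92e-06). With 1 library left out its log2 fold change ran from -4.19 (without control replicate 2) to -1.65 (without trained replicate 1) and passed each time, whereas S100a5 did not pass without trained replicate 1 or 2 (0.49 and 0.48). Ribosomal pseudogenes such as Rps18-ps3 and Rpl9-ps6 were lower too, and their counts are uncertain because near-identical copies share reads.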

How the data were processed

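RNA of single cells from the olfactory bulbs of 6 mouse libraries was captured by droplets and read from the 3′ end. Per the submitters' processing notes, Cell Ranger 2.0.0, the genome build mm10 and Seurat 2.2.1 were used. The authors deposited UMI counts per gene and cell (18560 genes, 52549 barcodes), cell annotations with cluster names, and mitochondrial UMIs as a fraction of each cell's total. The cells kept were those the authors had annotated, clusters were taken from that annotation, and doublets were not called again. Certain genes were not analysed or are not reported here.

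Counts were summed over the n11-GC-5 cells of each library. CPM are those sums per 1000000 UMIs of all genes. edgeR 4.0.16 (R 4.3.3) fitted all 6 sums with TMM scaling and its default filter on low counts by the quasi-likelihood test, and genes were called at a Benjamini-Hochberg adjusted p under 0.05 over all genes tested. Differences between types were tested as interactions with the library as a block, and cell numbers with the library's adult-born neurons as offset. DESeq2 1.42.0 was an alternative. On simulated counts, 37.7% (occluded against control), 43.7% (trained against control) and 40.4% (trained against occluded) of 191, 197 and 193 genes changed by a log2 of 1 were recovered among 8166, 8195 and 8218 genes. Interactions recovered 2% to 10% of 200 genes changed by the same log2 of 1, so most differences of this size between types would be missed. Same-numbered libraries had deviations that correlated at 0.18, 0.12 and 0.12, and at 0.07, 0.02 and -0.01 without sex-linked genes.

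Genes were named by rule: Dcx and Th, the 10 with the largest ratio to the highest other type and to the median type, the 10 lowest, the 10 highest and lowest against n03-GC-1 and n05-PGC-2, called genes, and the 4 highest of each list, of which those that carry a comparison are described. The members and lists were chosen with earlier results of these data known. The start of the cell names and the library column disagree for 558 trained cells, and the column was used. Count sums differed from the annotated totals in 521 of the cells, by at most 4 UMIs. Each group had 2 pools, of different sex by the study, so p-values measure the spread between pools and not between single mice. In the fits by group alone that spread includes the difference between the sexes.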

Additional observations from a re-analysis of the deposited data

Results flagged for a closer look

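The response of n11-GC-5 to occlusion differed from that of n03-GC-1 in 8 genes by the interaction test. Among them the differences of log2 fold changes were 3.85 for Hbb-bs, 4.78 for Hba-a1, 3.87 for Hba-a2, 0.96 for Stmn4, -1.25 for Phactr1, 1.86 for Lgals1 and -1.76 for Ubash3b. The hemoglobin differences came with 5 hemoglobin-rich cells, and without these cells Stmn4, Phactr1 and Lgals1 were called while Ubash3b had a difference of -1.75 with an adjusted p of 0.0807 by edgeR's quasi-likelihood test. Lgals1, a galectin, had a log2 fold change of 0.28 in n11-GC-5 and -1.62 in n03-GC-1.

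Against n05-PGC-2, the response to occlusion differed by 4.34 for Hbb-bs, 5.27 for Hba-a2 and 4.70 for Hba-a1. The response to training differed by 1.42 for Mt2, which stood at 169 and 170 in the control and 309 and 201 in the trained libraries of n11-GC-5 (TMM-scaled CPM). This Mt2 difference was lost when control replicate 1 or 2, or trained replicate 1 or 2, was left out.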

How the results depend on the processing

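For occluded against control, 5 genes became 3 with DESeq2 (all higher, S100a5 lost), and 1 without the hemoglobin-rich cells, without hemoglobin genes, in the N10 cells alone and with the replicate block without those cells. For trained against control, 10 became 22 with the replicate block (26 without hemoglobin-rich cells), 1 with DESeq2, 27 without the filter, 6 in cells of at least 1000 UMIs and 5 with the libraries of both groups alone, and 0 to 18 when 1 library was left out. For trained against occluded, 34 became 66 with the replicate block (70 without hemoglobin-rich cells), 11 with DESeq2, 67 without the filter, 19 with both groups alone and 7 to 40 with 1 library left out. DESeq2 called 6 genes between replicates against 26. Interactions with n03-GC-1 for occlusion fell from 8 to 4 in cells of at least 1000 UMIs and without hemoglobin-rich cells, and ran from 4 to 9 with 1 library left out, and those for training from 0 to 1. Interactions with n05-PGC-2 for occlusion became 8 in cells of at least 1000 UMIs and 0 without hemoglobin-rich cells, and for training ran from 0 to 4. Th was 128 CPM as a mean of single-cell CPM, and genes highest in every library were 5 in cells of at least 1000 UMIs and 10 to 17 with 1 library left out. Hba-a1 turned to -0.21 without the hemoglobin-rich cells and to -0.17 with the replicate block as well, and its difference from n03-GC-1 to -0.43 and that of Hba-a2 to -0.13. The share of n11-GC-5 stayed uncalled, with log2 differences of 0.12 to 0.45, -0.06 to 0.27 and -0.25 to -0.09 with 1 library left out. Of the genes called, 4 of 5 for occluded against control, 0 of 10 for trained against control, 7 of 34 for trained against occluded and 10 of 26 between replicates passed in every fit that left out 1 library. With 2 pairs per comparison the replicate number was not taken to pair libraries. The cause of these changes was not tested where it does not follow from fewer cells or libraries.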
